A study of Rattus norvegicus with 2 samples.

Results

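The genes described here carry out the making of adrenal steroids and of their precursor, cholesterol, and they were read in the adrenal medulla of rats 30 min after a hypoglycemic clamp had reached its target. Of 37 listed genes, 31 had at least 1 probe set of their own, meaning a set of short oligonucleotides on the array that the annotation assigns to that gene alone. They gave 50 of the 31042 probe sets on the array. A list of 19 steroidogenesis and cortex genes gave 14 genes and 20 probe sets, and a list of 18 cholesterol synthesis genes and regulators gave 17 genes and 30 probe sets. Mc2r, Fdxr and Hmgcs1 had no probe set named for them in the annotation used here, and Cyp11b2, Cyp11b3 and Hsd3b2 were named only on probe sets that they share with related genes.

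Both groups were adult male Sprague-Dawley rats, fasted overnight and clamped on day 4 at a glucose level between 40 and 50 mg/dL. The 2RH30 rats had received human insulin at 2 IU/kg, injected into the peritoneum 2 times per day over 3 days by the sample labels (the study's methods give a single injection on the last of these days), which models recurrent hypoglycemia (RH). The 2RS30 rats had received saline on the same schedule, so that the clamp was their only hypoglycemia. By the study's methods, the clamp itself was a constant infusion of human insulin with variable dextrose, given to both groups. For each group, the left medullae of 6 rats gave 1 RNA pool, which was read on a single Affymetrix rat array. With 1 array per group no test was possible and the spread between animals is unknown. All differences below are 2RH30 minus 2RS30 on the log2 scale, on which 1 stands for 2-fold, and they compare these 2 pools.

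Steroid hormones are made from cholesterol in the adrenal cortex, which surrounds the medulla. The cortex takes cholesterol from lipoproteins, stores it as esters, and carries it into mitochondria, where the first cleavage takes place. Cells also make cholesterol from acetyl-CoA through mevalonate and squalene. The enzymes of that route are switched on by SREBP transcription factors, which SCAP escorts out of the endoplasmic reticulum and INSIG proteins hold back when sterols are plentiful. Chromaffin cells, the cells of the medulla that make epinephrine and other catecholamines, do not make corticosteroids.

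Technical measures moved with the groups. Differences depended on brightness, with a median of -0.38 in the dimmest of 20 level bins and 0.49 in the brightest, and the values had an SD of 1.57 over probe sets in 2RH30 and 1.28 in 2RS30. The bioB hybridization controls differed by -3.51 to -3.03, bioC by -2.84 to -2.46, bioD by -1.94 to -1.19 and cre by -0.58 to -0.30. Control probe sets for the bacterial gene dap went the other way, by 0.33 to 1.84. Each difference is therefore given as deposited and after a lowess curve on the mean level was subtracted, called level-adjusted. Probe sets of 1 gene differed among themselves with an SD of 0.83 at mean levels of 5 to 7, 0.68 at 7 to 9 and 0.48 from 9 upward (level-adjusted 0.83, 0.68 and 0.53). This within-gene SD serves as a yardstick for single values, although it holds no spread between animals.

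Of the 50 probe sets, 44 (88%) lay above 0 as deposited and 6 below, beside 51% above and 49% below among all probe sets. Level-adjusted, 33 (66%) lay above 0 and 17 below, beside 50.1% and 49.9%. At the 2-fold threshold of the study, 8 of the 50 (16%) were higher in 2RH30 and 1 (2%) was lower. Over all probe sets the shares were 10.4% higher and 12.1% lower. Level-adjusted, 6 were higher (12%) and 0 lower, beside 8.99% and 10.2% of all probe sets. The share of higher calls was nearer to that of the whole array after the level trend was removed.

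The steroidogenic enzymes read brightly in this dissected medulla on both arrays. Cyp11a1, which cleaves the cholesterol side chain, had a level of 11.79 in 2RH30 and 10.99 in 2RS30. Cyp21a1, the 21-hydroxylase, read 11.45 in 2RH30 and 10.84 in 2RS30, and Hsd3b1, a 3-beta-hydroxysteroid dehydrogenase, read 10.25 in 2RH30 and 9.67 in 2RS30. Cyp11b1, which makes corticosterone by 11-beta-hydroxylation, read 11.46 in 2RH30 and 10.98 in 2RS30 on its own probe set. All of them were somewhat higher in 2RH30, by 0.80 for Cyp11a1, 0.60 for Cyp21a1, 0.58 for Hsd3b1 and 0.48 for Cyp11b1. These sizes are near the general trend of bright probe sets, and the level-adjusted differences were 0.22, 0.03, 0.04 and -0.09 in the same order. In bulk tissue, a different number of cortical cells and a different amount of RNA per cell cannot be told apart.

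Genes for the supply of cholesterol and electrons to these enzymes gave differences of similar size. Star moves cholesterol to the inner mitochondrial membrane, and its probe sets read 12.51 and 10.80 in 2RH30, against 11.81 and 10.03 in 2RS30. The differences of 0.70 and 0.76 were close to each other, and level-adjusted they were 0.10 and 0.21. Fdx1 is the ferredoxin that passes electrons to the mitochondrial P450 enzymes. It read 13.64 and 11.65 in 2RH30 and 12.92 and 11.15 in 2RS30, differences of 0.72 and 0.50 (level-adjusted 0.09 and -0.08). Over these 6 genes and 8 probe sets the level-adjusted differences ran from -0.09 to 0.22, all inside the within-gene SD.

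**Figure D1:**
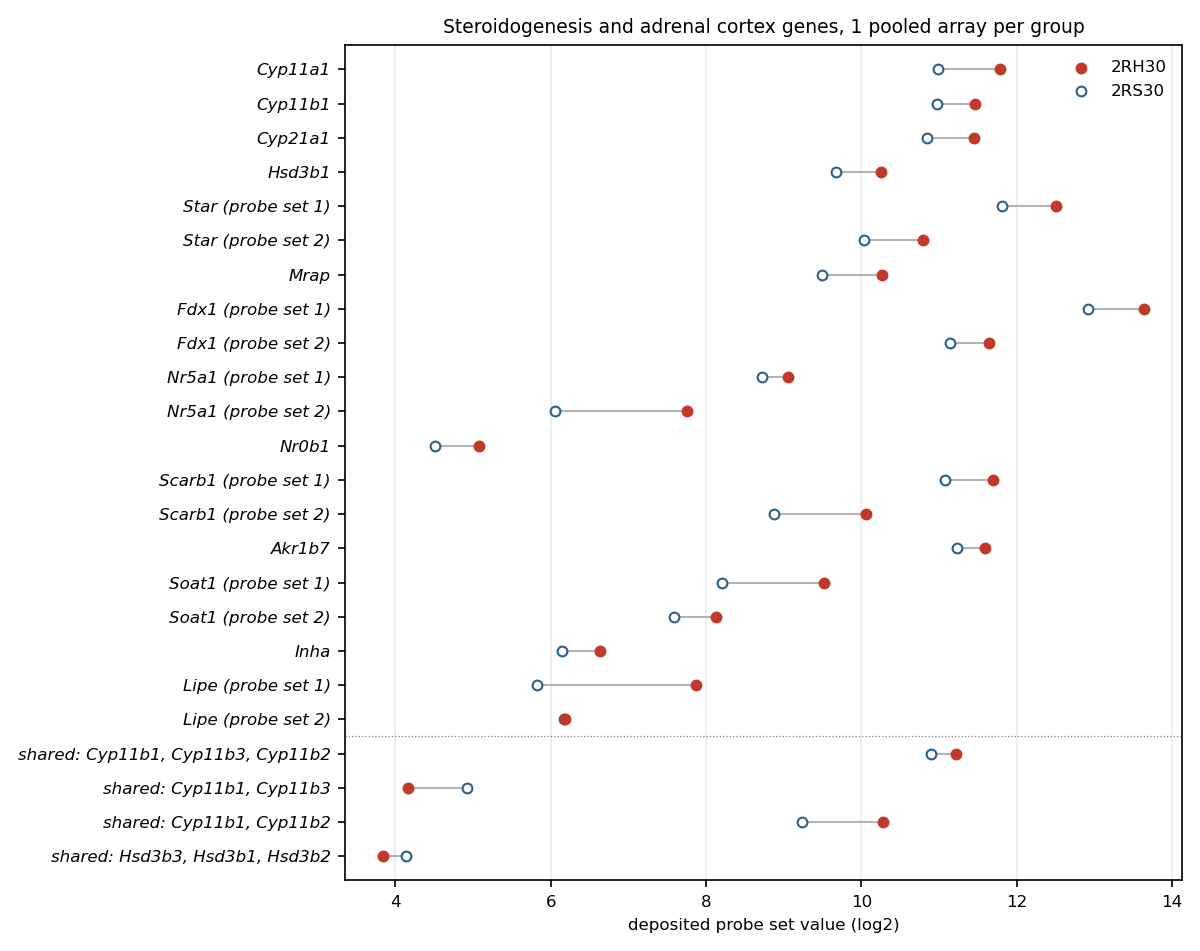
Deposited values (log2, horizontal axis) of the 20 probe sets of steroidogenesis and cortex genes, and of 4 probe sets shared between related genes (below the dotted line), in the 2RH30 pool (filled) and the 2RS30 pool (open), 1 array each. Each of the 20 lies further right in 2RH30, by 0.01 (Lipe, probe set 2) to 2.04 (Lipe, probe set 1).

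Near-identical genes limit what can be said of the last steps. Cyp11b2, the aldosterone synthase of the outer cortex, was read only together with its relatives. A probe set that names Cyp11b1, Cyp11b2 and Cyp11b3 read 11.21 in 2RH30 and 10.90 in 2RS30, a difference of 0.31 (level-adjusted -0.25). Another, which names Cyp11b1 and Cyp11b2, read 10.28 in 2RH30 and 9.24 in 2RS30, a difference of 1.04 (level-adjusted 0.51). The probe set naming Cyp11b1 and Cyp11b3 was dim, a word used here for values under the median of both arrays, at 4.16 in 2RH30 and 4.92 in 2RS30, a difference of -0.76 (level-adjusted -0.47). So was the one shared by Hsd3b1, Hsd3b2 and Hsd3b3, at 3.85 in 2RH30 and 4.14 in 2RS30, a difference of -0.29 (level-adjusted 0.15). None of these 4 was counted among the 50.

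Genes that give cortical cells their identity were less uniform. Mrap, the accessory protein that brings the ACTH receptor to the cell surface, read 10.26 in 2RH30 and 9.49 in 2RS30, a difference of 0.77 (level-adjusted 0.23). Akr1b7, an ACTH-responsive aldo-keto reductase of rodent cortex, read 11.59 in 2RH30 and 11.24 in 2RS30, a difference of 0.35 (level-adjusted -0.23). Inha, the inhibin alpha subunit, read 6.63 in 2RH30 and 6.14 in 2RS30, and the dim Nr0b1, which encodes the repressor DAX1, read 5.07 in 2RH30 and 4.51 in 2RS30. Their differences were 0.49 and 0.56 (level-adjusted 0.27 and 0.75). Nr5a1 encodes SF-1, the nuclear receptor that drives steroidogenic genes, and its 2 probe sets disagreed. One read 9.06 in 2RH30 and 8.73 in 2RS30, a difference of 0.33, and the other 7.75 in 2RH30 and 6.06 in 2RS30, a difference of 1.69 (level-adjusted -0.18 and 1.39).

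Uptake and storage of cholesterol gave the other 2-fold values of this list. Scarb1, the HDL receptor through which rodent cortex takes up cholesteryl esters, read 11.69 and 10.06 in 2RH30, against 11.08 and 8.88 in 2RS30. Its differences were 0.61 and 1.18 (level-adjusted 0.03 and 0.66). Soat1 re-esterifies cholesterol for storage, and it read 9.52 and 8.13 in 2RH30 and 8.20 and 7.59 in 2RS30, differences of 1.32 and 0.54 (level-adjusted 0.81 and 0.10). Lipe, the hormone-sensitive lipase that frees cholesterol from its esters, read 7.87 in 2RH30 and 5.83 in 2RS30 on 1 probe set, a difference of 2.04 (level-adjusted 1.75). On its other probe set it read 6.18 in 2RH30 and 6.17 in 2RS30, a difference of 0.01 (level-adjusted -0.18). For each of Nr5a1, Scarb1, Soat1 and Lipe, only 1 of the 2 probe sets passed 2-fold.

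Set against the rest of the array, the 20 probe sets of this list had a median difference of 0.61 as deposited and 0.10 level-adjusted. All 20 lay above 0 as deposited, and 15 did level-adjusted. The median over all 31042 probe sets was 0.02 as deposited and 0.00 level-adjusted. Over the 560 probe sets with a mean level of 9 or more it was 0.50 as deposited and -0.04 level-adjusted, against 0.66 and 0.06 for the 12 of this list at such levels. As deposited 4 of the 20 (20%) were 2-fold higher, beside 10.4% of all probe sets, and level-adjusted 2 (10%), 1 each for Nr5a1 and Lipe, beside 8.99%. Of the 12 at a mean level of 9 or more, 1 was 2-fold higher as deposited and 0 level-adjusted, beside 8.21% and 0.893% of all probe sets at such levels, and 0 were lower in either form, beside 0% and 0.536%.

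Chromaffin markers were read as a check of the tissue, and 0 of their 15 probe sets were dim. Th, the rate-limiting enzyme of catecholamine synthesis, read 11.96 in 2RH30 and 11.45 in 2RS30, and Pnmt, which makes epinephrine, 11.67 in 2RH30 and 11.35 in 2RS30. Their differences were 0.51 and 0.31 (level-adjusted -0.08 and -0.27). Dbh and Chga differed by 0.95 and 0.88 (level-adjusted 0.45 and 0.36). Gata3, a transcription factor of sympathoadrenal cells, differed by 1.18 on its brighter probe set and by -0.47 on the other (level-adjusted 0.71 and -0.70). The smallest differences by the brightest probe set were those of Phox2a and Ddc, 0.08 and 0.23 (level-adjusted -0.18 and -0.08). Over 15 probe sets of 12 chromaffin genes the median was 0.51 as deposited and 0.09 level-adjusted, near the 0.61 and 0.10 of the cortex list. The summed level of the cortex list, 1 probe set per gene, was 15.22 in 2RH30 and 14.56 in 2RS30 (log2 of the sum), and that of the chromaffin list 13.54 in 2RH30 and 13.01 in 2RS30. Both sums were higher in 2RH30, by 0.66 and 0.53. The samples, labelled adrenal medulla, thus carried cortical transcripts on both arrays, and the differences of the cortex list and of the chromaffin list were alike in size.

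**Figure D2:**
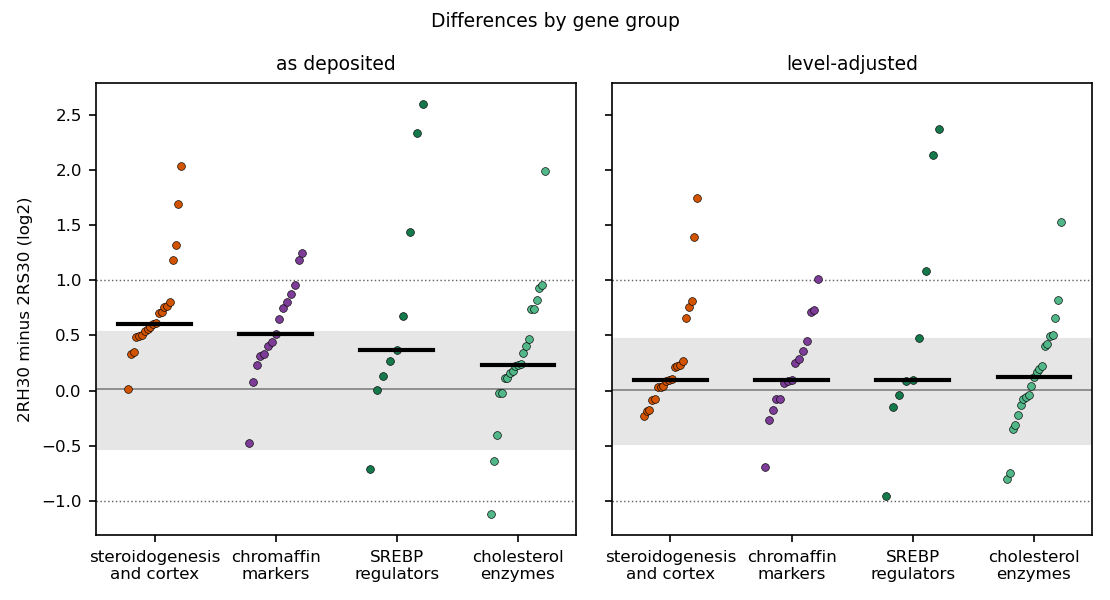
Each point is 1 probe set at its 2RH30 minus 2RS30 difference (log2, vertical axis), for those of 4 gene groups, as deposited (left) and level-adjusted (right). Bars mark group medians, which are 0.61, 0.51, 0.37 and 0.23 on the left and 0.10, 0.09, 0.09 and 0.12 on the right, the grey band holds the middle quartiles of all probe sets with their median as a line, and dotted lines mark 2-fold.

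Other genes of steroid production were read from a separate list of 32, of which 29 were measured. With 1 probe set per gene, 5 were 2-fold higher in 2RH30 and 1 was lower, against 11.5% and 9.62% of 14217 genes, and level-adjusted 2 were higher and 1 lower, against 8.95% and 9.31%. Their median over genes was 0.52 (level-adjusted 0.24), and over all 48 probe sets 0.33 (level-adjusted 0.06). Kcnk3, a background potassium channel, read 10.21, 8.29 and 7.94 in 2RH30, against 8.77, 7.52 and 7.14 in 2RS30. Its differences of 1.44, 0.77 and 0.80 shared a sign, and level-adjusted they were 0.92, 0.33 and 0.40. Agtr1a, an angiotensin receptor, differed by 1.25 on 1 probe set and by -0.77 on the other (level-adjusted 0.99 and -0.72). At the low end Hsd17b3, which makes testosterone in the testis, read 6.23 in 2RH30 and 7.32 in 2RS30, a difference of -1.08 (level-adjusted -1.37). Hsd3b5 differed by -0.70 (level-adjusted -0.66).

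The regulators of cholesterol synthesis held the highest difference of all 50 probe sets. Insig1, an SREBP target that retains SCAP in the endoplasmic reticulum, read 7.74 in 2RH30 and 5.14 in 2RS30. That difference of 2.60, or 6.08-fold, was 2.37 level-adjusted, and it rests on 1 probe set. Its relative Insig2 was dim and read 5.51 and 5.41 in 2RH30, against 5.38 and 5.41 in 2RS30, differences of 0.13 and 0.00 (level-adjusted 0.08 and -0.04). The 2 INSIG genes therefore differed between the pools by very unequal amounts.

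Both SREBP genes were measured on 2 probe sets each. Srebf2 encodes the SREBP that mainly serves cholesterol synthesis, and its brighter probe set read 7.84 in 2RH30 and 7.57 in 2RS30, a difference of 0.27 (level-adjusted -0.15). Its dimmer probe set read 7.37 in 2RH30 and 5.04 in 2RS30, a difference of 2.33 (level-adjusted 2.13). Srebf1, whose product serves fatty acid synthesis more, read 6.90 and 6.53 in 2RH30 and 6.53 and 5.85 in 2RS30, differences of 0.37 and 0.68 (level-adjusted 0.09 and 0.48). The probe sets of Scap pointed opposite ways. One read 7.93 in 2RH30 and 6.50 in 2RS30, a difference of 1.44, and the other 6.18 in 2RH30 and 6.89 in 2RS30, a difference of -0.71 (level-adjusted 1.08 and -0.95). For Srebf2 and Scap the 2-fold value thus depended on which probe set was read.

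Sequences before the start sites of Insig1, Dhcr7 and Srebf2, which hold the 3 highest differences of the cholesterol list, are shown beside those of Mvk and Nr5a1, which held several matches to 1 motif searched. They are the 250 bases before the start of each gene, from RefSeq, build GRCr8, written 5′ to 3′ on the strand of the gene, with matches to CCAAT on either strand in capitals. They lie at chr4:8057770-8058019 for Insig1 (minus strand), chr1:208444184-208444433 for Dhcr7 (plus strand), chr7:115543057-115543306 for Srebf2 (plus strand), chr12:47819504-47819753 for Mvk (minus strand) and chr3:42896047-42896296 for Nr5a1 (minus strand).
Insig1: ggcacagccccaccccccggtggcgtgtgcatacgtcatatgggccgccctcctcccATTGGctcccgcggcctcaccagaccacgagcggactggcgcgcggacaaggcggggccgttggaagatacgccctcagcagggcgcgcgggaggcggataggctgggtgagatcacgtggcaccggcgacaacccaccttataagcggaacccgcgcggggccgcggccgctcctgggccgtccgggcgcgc
Dhcr7: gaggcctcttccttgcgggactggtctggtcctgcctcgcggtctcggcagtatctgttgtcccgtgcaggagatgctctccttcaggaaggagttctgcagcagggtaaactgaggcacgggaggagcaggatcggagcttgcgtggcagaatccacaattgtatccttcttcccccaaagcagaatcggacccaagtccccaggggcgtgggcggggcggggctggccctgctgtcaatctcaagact
Srebf2: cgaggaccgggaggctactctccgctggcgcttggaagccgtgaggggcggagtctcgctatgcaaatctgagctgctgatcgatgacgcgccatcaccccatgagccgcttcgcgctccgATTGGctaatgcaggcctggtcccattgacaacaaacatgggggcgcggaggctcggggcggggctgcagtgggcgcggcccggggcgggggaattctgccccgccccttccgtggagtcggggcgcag
Mvk: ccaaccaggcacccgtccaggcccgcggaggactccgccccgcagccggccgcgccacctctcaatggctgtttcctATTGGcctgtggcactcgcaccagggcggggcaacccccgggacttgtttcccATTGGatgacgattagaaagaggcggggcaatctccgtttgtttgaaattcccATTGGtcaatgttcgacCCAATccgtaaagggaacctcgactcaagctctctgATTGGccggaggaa
Nr5a1: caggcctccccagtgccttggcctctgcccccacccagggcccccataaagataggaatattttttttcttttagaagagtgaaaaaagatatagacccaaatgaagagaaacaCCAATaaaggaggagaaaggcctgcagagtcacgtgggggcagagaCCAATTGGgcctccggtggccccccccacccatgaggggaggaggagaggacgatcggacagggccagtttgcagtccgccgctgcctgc

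Promoters of 300 bases, 250 before and 50 after the start, were at hand for 28 of the 37 genes, with 2 for Srebf1. The CCAAT box, the letters bound by the factor NF-Y, was found on either strand in 13 of 17 promoters of the cholesterol list (76.5%), in 5 of 12 of the cortex list (41.7%) and in 37.5% of all 33469 promoters. Mvk and Nsdhl held 5 matches each, Nr5a1 3, Srebf1 3 over its 2 promoters together, Insig1 and Srebf2 1, and Dhcr7 none. In Nr5a1, 2 of the matches overlap. Whether the number of boxes goes with the differences was not tested. The letters TCACNCCAC, a form of the sterol regulatory element, were in 0 of these promoters and in 1.12% of all, and CAAGGNCA, a form of the SF-1 motif, in 0 and in 6.55%. A missing match says only that those letters do not occur in that window.

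The enzymes from acetyl-CoA to farnesyl diphosphate showed small differences. Acat2, the cytosolic thiolase, read 6.77 in 2RH30 and 6.30 in 2RS30, a difference of 0.47 (level-adjusted 0.22). Mvk, mevalonate kinase, read 7.46, 6.81 and 5.76 in 2RH30 and 7.30, 6.83 and 5.53 in 2RS30, with differences of 0.16, -0.02 and 0.23 on its 3 probe sets (level-adjusted -0.22, -0.31 and 0.12). Mvd, the dim mevalonate diphosphate decarboxylase, differed by 0.40 (level-adjusted 0.49), with 5.25 in 2RH30 and 4.85 in 2RS30. Idi1 isomerizes isopentenyl diphosphate, and it read 7.18 and 5.63 in 2RH30 and 6.25 and 5.39 in 2RS30, differences of 0.93 and 0.24 (level-adjusted 0.66 and 0.17). Fdps, farnesyl diphosphate synthase, had almost the same level in both pools, 6.998 in 2RH30 and 7.023 in 2RS30, a difference of -0.02 (level-adjusted -0.34). None of these 5 genes reached 2-fold on any probe set.

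The genes for squalene synthesis and its first oxidation read higher in 2RH30 by less than 2-fold. Fdft1, squalene synthase, read 6.87 and 6.22 in 2RH30, against 6.13 and 5.27 in 2RS30. Its probe sets gave similar differences, 0.74 and 0.95 (level-adjusted 0.50 and 0.82). Sqle, the squalene epoxidase that limits the rate of the later steps, read 7.48 in 2RH30 and 6.73 in 2RS30, a difference of 0.74 (level-adjusted 0.41). Lss, which closes the ring to lanosterol, differed by 0.22 and 0.11 (level-adjusted -0.08 and -0.06), with 6.99 and 6.02 in 2RH30 and 6.77 and 5.91 in 2RS30. The level-adjusted values of these 3 genes all lay inside the within-gene SD.

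After lanosterol the values diverged. Dhcr7 reduces 7-dehydrocholesterol to cholesterol at the end of the route, and it read 8.99 in 2RH30 and 7.003 in 2RS30. The difference of 1.99, or 3.96-fold, was 1.53 level-adjusted, and like that of Insig1 it rests on a single probe set. Cyp51, the lanosterol demethylase, read 7.96 and 7.59 in 2RH30 and 7.14 and 7.24 in 2RS30, differences of 0.82 and 0.34 (level-adjusted 0.42 and -0.04). Sc5d, the sterol C5 desaturase, read 7.05, 5.58 and 3.63 in 2RH30, against 6.87, 6.22 and 4.03 in 2RS30. It differed by 0.18, -0.64 and -0.41 (level-adjusted -0.13, -0.80 and 0.04), so its probe sets did not share a sign. Nsdhl, which acts in removing the C4 methyl groups, was dim on both probe sets. It read 5.15 and 3.72 in 2RH30 and 5.03 and 4.84 in 2RS30, differences of 0.12 and -1.12 (level-adjusted 0.19 and -0.75), and -1.12 was the only difference of the 50 that was 2-fold lower.

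**Figure D3:**
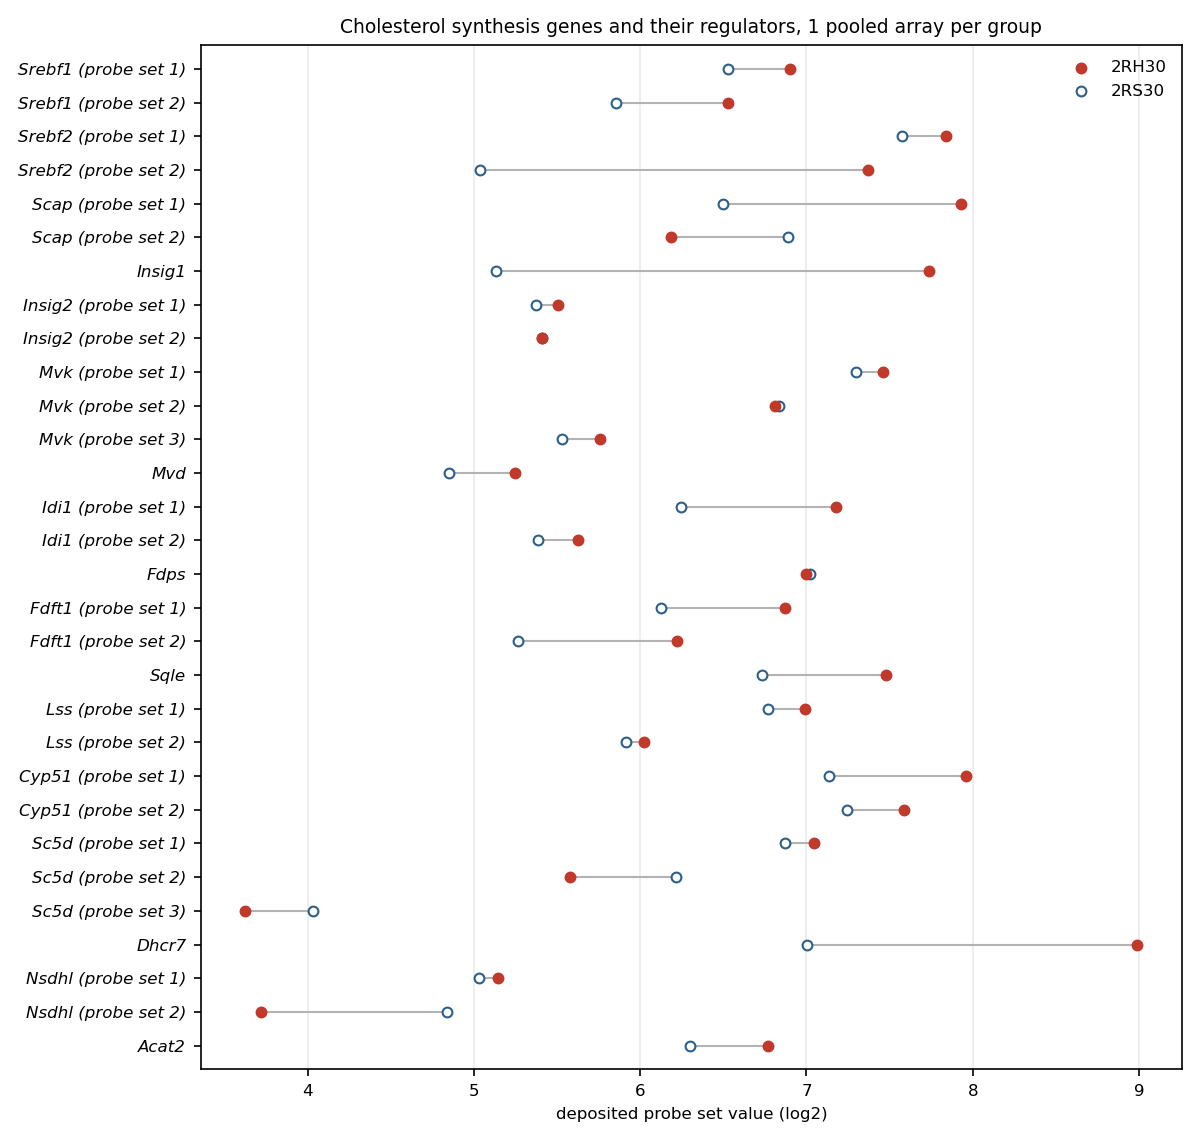
Deposited values (log2, horizontal axis) of the 30 probe sets of cholesterol synthesis genes and their regulators in the 2RH30 pool (filled) and the 2RS30 pool (open), 1 array each. Insig1, Srebf2 (probe set 2) and Dhcr7 have the widest gaps, 2.60, 2.33 and 1.99, and 6 probe sets lie further left in 2RH30.

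Over the 30 probe sets of the cholesterol list the median difference was 0.25 as deposited and 0.11 level-adjusted. The 18206 probe sets of the array at mean levels of 5 to 8 had a median of 0.18 as deposited and 0.00 level-adjusted, against 0.31 and 0.15 for the 28 of this list at those levels. As deposited, 4 of the 30 (13.3%) were 2-fold higher and 1 (3.33%) was lower, beside 10.4% and 12.1% of all probe sets. Level-adjusted, 4 were higher and 0 lower, beside 8.99% and 10.2%. All 4 higher ones were among the 28 at levels of 5 to 8, where 13.8% of all probe sets were 2-fold higher and 6.62% lower as deposited, and 9.69% and 8.98% level-adjusted. The share of lower calls in this list was thus below that of all probe sets. The share of higher calls, 13.3% in both forms, was somewhat above that of all probe sets and rests on 4 probe sets. The 4 were the same probe sets in both forms, those of Insig1, Srebf2, Dhcr7 and Scap. The 9 probe sets of the 5 regulators had a median of 0.37 (level-adjusted 0.09) and the 21 of the 12 enzymes 0.23 (level-adjusted 0.12).

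**Figure D4:**
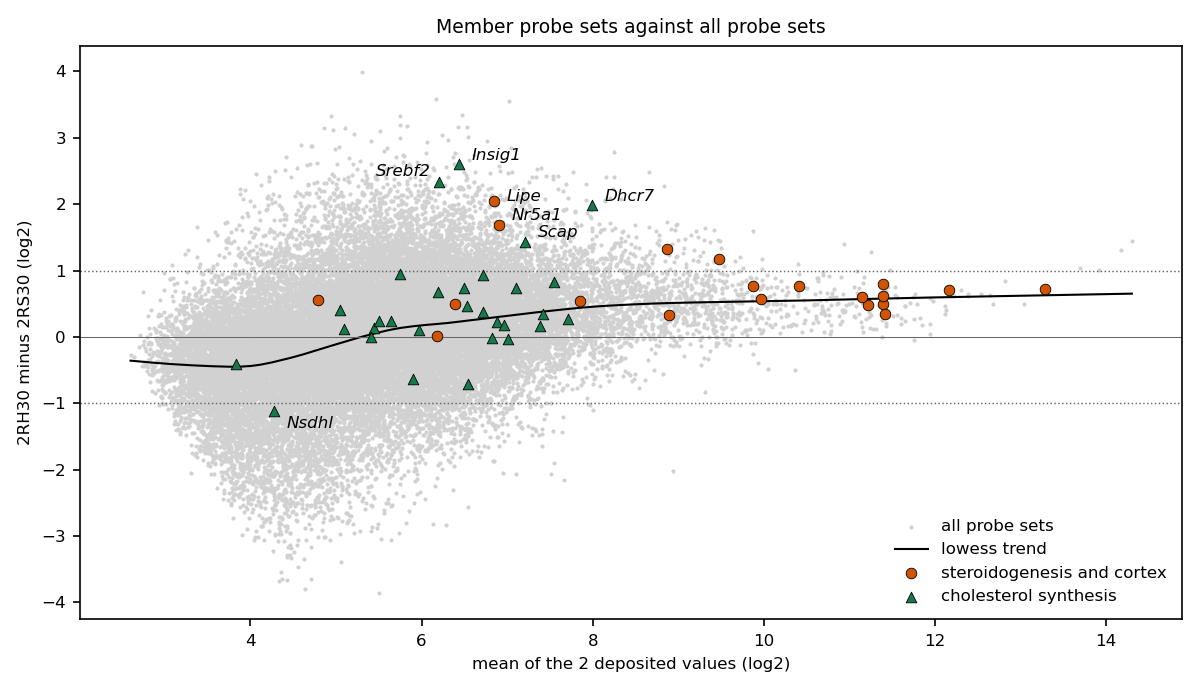
The vertical axis gives 2RH30 minus 2RS30 (log2) and the horizontal axis the average of both values (log2), for all probe sets (grey), with the lowess trend (line), the steroidogenesis and cortex probe sets (circles) and the cholesterol synthesis probe sets (triangles). Dotted lines mark 2-fold. The 12 circles with a mean level of 9 or more have a median of 0.66 and follow the line, with a level-adjusted median of 0.06, whereas Insig1, Srebf2, Lipe, Dhcr7, Nr5a1 and Scap each have 1 probe set well above it.

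Probe sets of the same gene can be set side by side within each array. Of the 31 genes, 17 had several probe sets. In 13 of the 17 all probe sets had the same sign as deposited, and in 7 level-adjusted. At least 1 probe set passed 2-fold in 7 of them, and in 0 of the 7 did every probe set pass. The other genes past 2-fold, Insig1 and Dhcr7, had 1 probe set each, so that this check could not be made for them. The cortex list kept 1 sign in all 6 of its genes with several probe sets as deposited and in 3 level-adjusted. The same counts were not made over all genes of the array, so whether these genes differ from the rest in this was not tested.

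Of 18 further genes of sterol synthesis and its control, 14 were measured, and with 1 probe set per gene 2 were 2-fold higher and 2 lower, beside 11.5% and 9.62% of all genes. Level-adjusted, 1 was higher and 2 lower, beside 8.95% and 9.31%, and the median over genes was 0.02 (level-adjusted -0.16). Over all 19 probe sets of these genes the median was -0.33 (level-adjusted -0.35). Hsd17b7, a ketoreductase that acts beside Nsdhl, read 5.83 in 2RH30 and 4.63 in 2RS30 on its brighter probe set, a difference of 1.20 (level-adjusted 1.22), and differed by -0.99 (level-adjusted -0.55) on the dim one. Acat1, the mitochondrial thiolase, differed by 1.03 and -0.46 (level-adjusted 0.62 and -0.54). Rnf139 and Lbr were the lowest of those whose brightest probe set was not dim, at -0.53 and -0.33 (level-adjusted -0.63 and -0.56).

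A further list held genes for the uptake, storage and export of cholesterol. Of 21 listed, 17 were measured, 6 were 2-fold higher and 0 lower with 1 probe set per gene, and level-adjusted 4 were higher and 0 lower. Of all genes, 11.5% were higher and 9.62% lower as deposited, and 8.95% and 9.31% level-adjusted. The median over genes was 0.62 (level-adjusted 0.20). Over all 32 probe sets of these genes, 6 were 2-fold higher and 4 lower, and level-adjusted 4 were higher and 4 lower. The shares over all probe sets were 10.4% and 12.1% as deposited, and 8.99% and 10.2% level-adjusted. The differences of the 32 ran from -2.20 to 1.71, with a median of 0.16 (level-adjusted 0.04). Abca1, the sterol exporter, read 7.53 in 2RH30 and 5.81 in 2RS30 on its brightest probe set, a difference of 1.71 (level-adjusted 1.45), but its others differed by 0.17, -0.31 and 0.11 (level-adjusted 0.04, -0.41 and 0.32). Lipa, the lysosomal acid lipase, read 6.41 in 2RH30 and 5.03 in 2RS30, a difference of 1.38 (level-adjusted 1.25). Of the genes whose brightest probe set was not dim, Plin1 and Nceh1 were lowest, at -0.24 and -0.20 (level-adjusted -0.37 and -0.38). A dim probe set of Plin1 differed by -1.95 (level-adjusted -1.65). Macrophages express several of these genes, and with 1 probe set per gene 4 of 6 measured macrophage markers were 2-fold higher and 0 lower, both as deposited and level-adjusted, beside the same shares of all genes. The other 2, Csf1r and Ptprc, lay below 0. The levels of those markers ran from 2.72 to 7.95 in 2RH30 and from 3.06 to 6.57 in 2RS30, and their summed level was 9.26 in 2RH30 and 8.32 in 2RS30. Cd68 and C1qa differed by 1.60 and 2.71 (level-adjusted 1.61 and 3.04), Csf1r by -0.77 and the brighter probe set of Ptprc by -0.71 (level-adjusted -0.89 and -0.79). A dim probe set of Ptprc differed by -2.13 (level-adjusted -1.68). The part of macrophages in these values was not tested.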

How the data were processed

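The table that the authors deposited holds log2 values for 31099 probe sets of the Affymetrix Rat Genome array, 57 of them controls, on each of 2 arrays. Affymetrix Expression Console is named in the submission notes and GCRMA, run in Partek, in the study's methods. The study calls its deposited data quantile-normalized, and the method that summarized them was not given in the sources consulted. That they are log2 was inferred from their range. Ranked without the controls, the 2 arrays lie up to 1.45 apart at the same rank and thus do not share 1 distribution, which quantile normalization would give them. This conflict was not resolved and bears on every difference as deposited. A single gene was named by the platform annotation for 20826 probe sets, several for 436 and none for 9780. Symbols were updated by gene number through RefSeq, assembly GRCr8, in which 20758 matched.

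All probe sets of the listed genes are named, with every value. From each other list the text names at most the 2 genes with the highest and the 2 with the lowest difference, read from a gene's brightest probe set and leaving out dim ones, with Th, Dbh, Pnmt and Chga as the check of the tissue. As dim means under the median of both arrays, some of these probe sets were kept by 1 array alone. Those of Cd68, C1qa, Lipa, Hsd17b7, Gli1, Tek and Sox10 were above the median in 2RH30 only. Those of Hsd3b5, Acss2, Rnf139, Csf1r and Ptprc were above it in 2RS30 only. Among the listed genes, the Insig1 probe set and the dimmer ones of Srebf2, Idi1 and Fdft1 were above the median in 2RH30 only. The members and lists were chosen with earlier results of these data known. With a single array per group there was no test, and that number limits the precision of every value. The level adjustment is a lowess fit (fraction 0.3, 3 iterations), which was tested on simulated data with less noise and fewer changed probe sets than here. That test therefore does not show how the fit behaves at the spread of these differences, an SD of 0.86. A median was taken to have moved under an alternative if it changed by over 0.1, a count if it changed by over 1.5 times, and a gene if it changed by more than the within-gene SD. Alternatives covered normalization, dim and multiply matching probe sets, the summary per gene and the threshold. Lowess came from statsmodels 0.14.6, under Python 3.11.15 with scipy 1.17.1, numpy 2.4.6 and pandas 2.3.3, and plots from matplotlib 3.10.9.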

Additional observations from a re-analysis of the deposited data

How the results depend on the processing

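The alternatives for the 20 probe sets of the cortex list and the 30 of the cholesterol list were median centring, quantile normalization, lowess, leaving out dim probe sets or those that match more than 1 transcript, 1 probe set per gene, the mean over a gene, and 1.5-fold and 3-fold thresholds. Lowess with 1 probe set per gene was chosen after seeing the data. The cortex count of 4 higher was 2 after quantile normalization, 2 after lowess, 2 with 1 probe set per gene, 2 with the mean over a gene, 2 at 3-fold, 11 at 1.5-fold and 1 with lowess and 1 probe set per gene. Its count lower was 0 under every alternative. Its median of 0.61 was 0.17 after quantile normalization, 0.10 after lowess and 0.10 with lowess and 1 probe set per gene. The cholesterol count of 4 higher was 10 at 1.5-fold and within 1.5 times elsewhere. Its count of 1 lower was 3 at 1.5-fold, 1 after centring, 1 without multiply matching probe sets, and 0 under each other alternative. Its median of 0.25 was 0.15 after quantile normalization, 0.11 after lowess, 0.36 without dim probe sets, 0.40 with 1 probe set per gene and 0.47 with the mean over a gene. Other thresholds and units change the counts by construction, and elsewhere the cause was not tested. Shares over the whole array were counted at 2-fold only, as deposited and after lowess. The counts at 1.5-fold, at 3-fold and after quantile normalization therefore have no such share beside them. Of 112 values of single genes under alternatives, 16 moved by more than the within-gene SD and 96 did not, and 8 genes changed sign under at least 1 alternative, 7 of them from above 0 as deposited to below 0 after lowess. These values take a gene's brightest probe set or mean, so 2-fold differences of dimmer probe sets, as in Nr5a1, Scarb1, Srebf2 and Nsdhl, were not followed one by one. No paired analysis was possible because a single array stands for each group, and for that reason no replicate could be left out. The table gives no background signal, so the limit that signal over background sets on dim probe sets is unknown. No pseudocount was needed on a log scale.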

Other observations

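Fatty acid synthesis shares its SREBP control with cholesterol synthesis, and 13 of 14 listed genes were measured. With 1 probe set per gene 1 was 2-fold higher in 2RH30 and 1 lower, beside 11.5% and 9.62% of all genes, and level-adjusted 0 were higher and 1 lower, beside 8.95% and 9.31%. The median over genes was 0.12 as deposited and -0.27 level-adjusted. Over all 24 probe sets of these genes it was -0.23 as deposited and -0.35 level-adjusted. Elovl5, an elongase of polyunsaturated fatty acids, read 9.73 and 8.82 in 2RH30 and 8.26 and 7.97 in 2RS30, differences of 1.47 and 0.85 (level-adjusted 0.95 and 0.36). Fasn, fatty acid synthase, differed by 0.63 on 1 probe set and by -2.07 on the other (level-adjusted 0.43 and -2.18). Acss2, which makes cytosolic acetyl-CoA from acetate, read 5.26 in 2RH30 and 6.64 in 2RS30, a difference of -1.38 (level-adjusted -1.55). Me1, the cytosolic malic enzyme, differed by -0.62 and -0.25 (level-adjusted -0.83 and -0.10).

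Markers of other cells of the gland varied in direction. Of 7 capsule and stroma genes, 1 was 2-fold higher and 0 lower as deposited, and 1 higher and 1 lower level-adjusted, beside 11.5% and 9.62% of all genes as deposited and 8.95% and 9.31% level-adjusted. The median over genes was -0.03 (level-adjusted 0.19), and over all 11 probe sets -0.44 (level-adjusted -0.26). Gli1, a Hedgehog target of capsular cells, read 5.97 in 2RH30 and 4.78 in 2RS30, a difference of 1.18 (level-adjusted 1.16). Nr2f2, a nuclear receptor of stroma, had 3 probe sets with differences of -0.81, -0.67 and -0.82 (level-adjusted -1.22, -1.05 and -0.37). Dcn, decorin, differed by 0.72 (level-adjusted 0.19), and Rspo3 by -0.54 and -0.16 (level-adjusted -0.70 and -0.01). No Schwann cell gene of 3 measured and no endothelial gene of 4 passed 2-fold in either direction, with medians of 0.09 and 0.19 over genes. Sox10, a Schwann lineage factor, differed by 0.09 (level-adjusted 0.03), and the endothelial genes Tek and Plvap by 0.48 and 0.19 (level-adjusted 0.38 and -0.03).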
